A study of Mus musculus with 14 samples.

Results

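The genes described here encode the chains that carry and signal for the pre-B cell receptor: Igll1, Vpreb1 and Vpreb2 of the surrogate light chain, their relative Vpreb3, and the signalling chains Cd79a and Cd79b. They were chosen by symbol, and each of the 6 genes was read by 1 probe set annotated with that symbol alone, out of 19938 genes in the table. The cells were BH1-Bcl2-Ik1ER, a mouse pre-B line that is deficient in Ikaros (Ikzf1, a DNA-binding regulator of lymphocyte development). The line carries retroviruses for Bcl2, which blocks apoptosis, and for Ikaros fused to the estrogen receptor, and doubly transduced cells were sorted, so the controls carry both transgenes too. The fusion was activated with 100 nM 4-hydroxytamoxifen (4OHT), and IL-7, the cytokine these cells grow in, came as 8% conditioned medium that was left out for withdrawal. The 7 groups were time 0 (IL-7, no 4OHT), 2 groups at 6 h that both had 4OHT and differed in IL-7, and 4 groups at 24 h that crossed 4OHT with IL-7. Each group had 2 arrays, 1 from each of 2 independent experiments. Cells without the fusion were not analysed here, so 4OHT itself and Ikaros activity cannot be told apart, and all values come from 1 line with a transduced fusion.

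The pre-B cell receptor forms when a precursor B cell has made an immunoglobulin heavy chain but no light chain yet. A surrogate light chain then takes the place of the light chain. It joins a constant-like part, lambda5 (Igll1), to a variable-like part, VpreB (Vpreb1 or Vpreb2). The heterodimer of CD79a and CD79b holds the receptor at the membrane and carries the tyrosine motifs that recruit the kinase Syk. The surrogate light chain genes are turned off as pre-B cells mature, while CD79 stays on through the life of a B cell. Ikaros is known in the mouse to bind the Igll1 promoter, where it competes with the activator EBF1.

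Sequences upstream of the transcript starts were taken from RefSeq (build GRCm38.p6), which gave a window for 5 of the 6 genes, all but Cd79b. The windows of 250 bases before the start are shown for Igll1 and Vpreb1, which are direct neighbours on chromosome 16 and moved alike, and for Cd79a, which moved the other way. Capitals mark the letters of 3 motifs searched on both strands: GGGAA, the core that Ikaros binds, CCCNNGGG, bound by EBF1, and CAGGTG, an E-box bound by E2A.
Igll1 (chr16:16863986-16864235, minus strand): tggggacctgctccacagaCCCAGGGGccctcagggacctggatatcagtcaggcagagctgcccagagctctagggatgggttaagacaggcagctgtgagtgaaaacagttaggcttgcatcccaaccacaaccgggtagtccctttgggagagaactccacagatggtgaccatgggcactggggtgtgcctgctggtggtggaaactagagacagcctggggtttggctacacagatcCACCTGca
Vpreb1 (chr16:16869256-16869505, minus strand): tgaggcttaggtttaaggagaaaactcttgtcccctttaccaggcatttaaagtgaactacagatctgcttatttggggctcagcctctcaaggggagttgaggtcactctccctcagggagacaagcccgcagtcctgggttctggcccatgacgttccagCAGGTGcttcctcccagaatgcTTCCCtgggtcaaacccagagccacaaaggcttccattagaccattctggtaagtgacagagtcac
Cd79a (chr7:24897247-24897496, plus strand): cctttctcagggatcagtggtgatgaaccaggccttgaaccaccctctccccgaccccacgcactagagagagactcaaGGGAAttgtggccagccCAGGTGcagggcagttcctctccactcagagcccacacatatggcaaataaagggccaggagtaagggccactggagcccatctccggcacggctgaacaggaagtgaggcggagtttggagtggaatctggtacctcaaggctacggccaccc
In Igll1 the EBF1 letters began 231 bases before the start and the E-box letters 8 bases before it, and GGGAA was absent on both strands. Vpreb1 held 1 E-box, 88 bases before the start, and 1 Ikaros core at 66 bases, read on the other strand. Cd79a held the Ikaros core 171 bases and the E-box 154 bases before its start. Only exact letters were counted. The Cd79a letters ctcaaGGG, which run into its Ikaros core, differ from CCCNNGGG in 1 letter and so gave no EBF1 match. Which factor binds there was not tested. None of the exact matches overlapped another. Such matches are common: of 32851 windows of the same length, 56.2% held GGGAA, 17.2% the E-box and 11.8% the EBF1 letters.

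Vpreb1 and Vpreb2 are near copies of each other, and the RefSeq windows show it. Over whole windows of 300 bases, which run past the start, 156 bases aligned and 153 of them were identical. The part printed here begins with the Vpreb2 window and was cut at the annotated Vpreb1 start. It holds 106 bases with 2 mismatches (98.1% identity), and capitals mark those mismatches. How far the match extends beyond the windows was not tested.
Vpreb1 (chr16:16869256-16869361, minus strand): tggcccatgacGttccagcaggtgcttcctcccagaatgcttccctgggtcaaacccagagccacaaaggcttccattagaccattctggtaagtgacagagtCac
Vpreb2 (chr16:17980315-17980420, plus strand): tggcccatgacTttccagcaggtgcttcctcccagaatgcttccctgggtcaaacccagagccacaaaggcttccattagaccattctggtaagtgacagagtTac
The shared stretch holds the E-box and the Ikaros core found in Vpreb1. In Vpreb2 the annotated start lies further downstream, so the same letters stand 232 and 210 bases before it, with another GGGAA on the other strand at 64 bases. That last match lies past the printed stretch, downstream of the point that matches the Vpreb1 start. Bases of Vpreb1 beyond its start were not searched, so this match does not show a difference between the genes. Vpreb3 held GGGAA at 175 and 16 bases and neither of the other motifs. The probe sequences of the array were not used here, so how far the probe set of one Vpreb gene also reads the other was not tested.

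**Figure D1:**
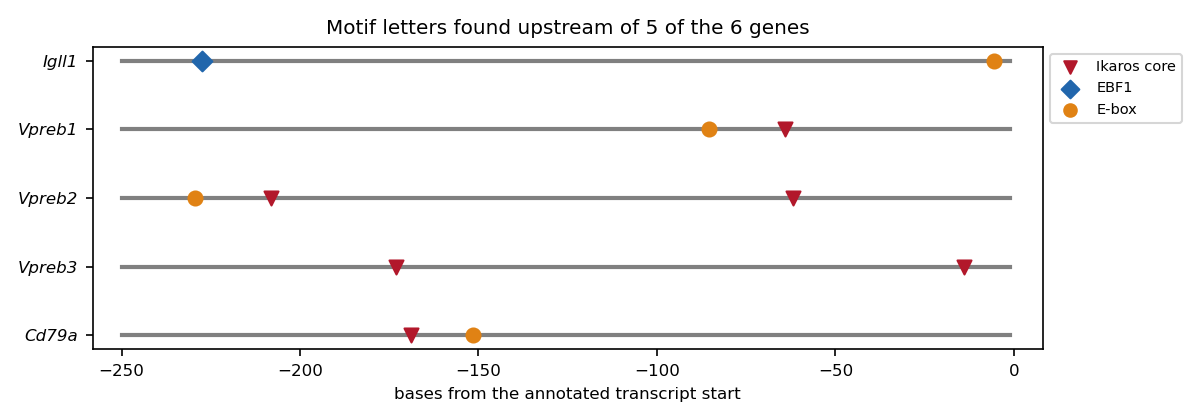
Positions of the 3 motifs in the 250 bases before the annotated start of 5 genes; the x axis is the distance from that start in bases, and each marker is 1 match on either strand. Igll1 has the only exact match to the EBF1 letters in the 5 windows and no exact Ikaros core.

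The arrays were alike in overall signal, with medians from 7.23 to 7.43 in log2 units of RMA (robust multi-array averaging, which puts arrays on a common scale). Correlation within groups over genes was 0.9968 to 0.9982. Of 11 measured B lineage markers 7 lay above the median of all values (7.33) in their highest group, among them Pax5, Ebf1, Blnk and Il7r, while Rag1, Rag2, Dntt and Ms4a1 stayed below it in every group. The mean level of these 11 ran from 9.65 to 10.19 over the groups. T cell markers (2 of 7 above the median, mean level 6.77 to 6.89), myeloid (1 of 10, 6.20 to 6.39), erythroid (1 of 3, 6.94 to 7.10), plasma cell (3 of 6, 8.12 to 8.31) and stromal markers (4 of 6, 8.02 to 8.25) had narrower ranges of the mean, but single markers in them changed in the same groups as the receptor genes. In limma, for both treatments against neither at 24 h, 7 of the 11 B lineage markers rose and 0 fell. Their median change was 0.46, against -0.01 over all genes. The largest of these rises, in Ptprc, Blnk and Pax5, ran from 1.08 to 1.29, where Cd79a changed by 1.04 and Cd79b by 0.81. Of the 7 T cell markers 1 rose and 1 fell. Of the 10 myeloid markers 2 rose, and of the 6 plasma cell markers 1 rose and 1 fell. Of the 6 stromal markers 1 fell, and 0 of the 3 erythroid markers passed. Over all genes 18.1% rose and 15.4% fell in this comparison. Zap70, a kinase of T cell receptor signalling, changed by 1.49 in this comparison, and also rose with 4OHT at 24 h with IL-7 (0.97) and without it (0.80). Group means of Cd3d and Cd3g stayed at or below 5.80 and 5.24. Those of Cd3e reached 7.34, and Cd3e fell with 4OHT at 24 h with IL-7 (-0.29). For both treatments against neither, Itgam changed by 0.67, Fcgr3 by 0.46, Irf4 by 0.36, Thy1 by -0.35, Vim by -0.89 and Sdc1 by -1.19. The part of these markers in the results was not tested. Ighm, the heavy chain gene that the surrogate light chain pairs with, had group means of only 7.15 to 7.44 at its probe set. Changes below are log2 differences ± standard error from limma, with n = 2 arrays per group and Benjamini-Hochberg adjusted p over all 19938 genes, and a change passed at an adjusted p under 0.05. In these bulk samples fewer cells with a transcript and less transcript per cell cannot be told apart.

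With 4OHT added and IL-7 removed for 24 h, the surrogate light chain genes were at their lowest and both CD79 genes at their highest of the 7 groups. Against 24 h with neither treatment (IL-7 kept, no 4OHT) all 6 genes passed, 3 higher and 3 lower, where 18.1% of all genes passed higher and 15.4% lower. Vpreb1 fell 2.06-fold and Vpreb2 fell 1.98-fold, while Cd79a rose 2.06-fold and Cd79b rose 1.76-fold. Igll1 fell 1.22-fold and Vpreb3 rose 1.35-fold. The following paragraphs take the chains by role and give their levels on each array.

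**Figure D2:**
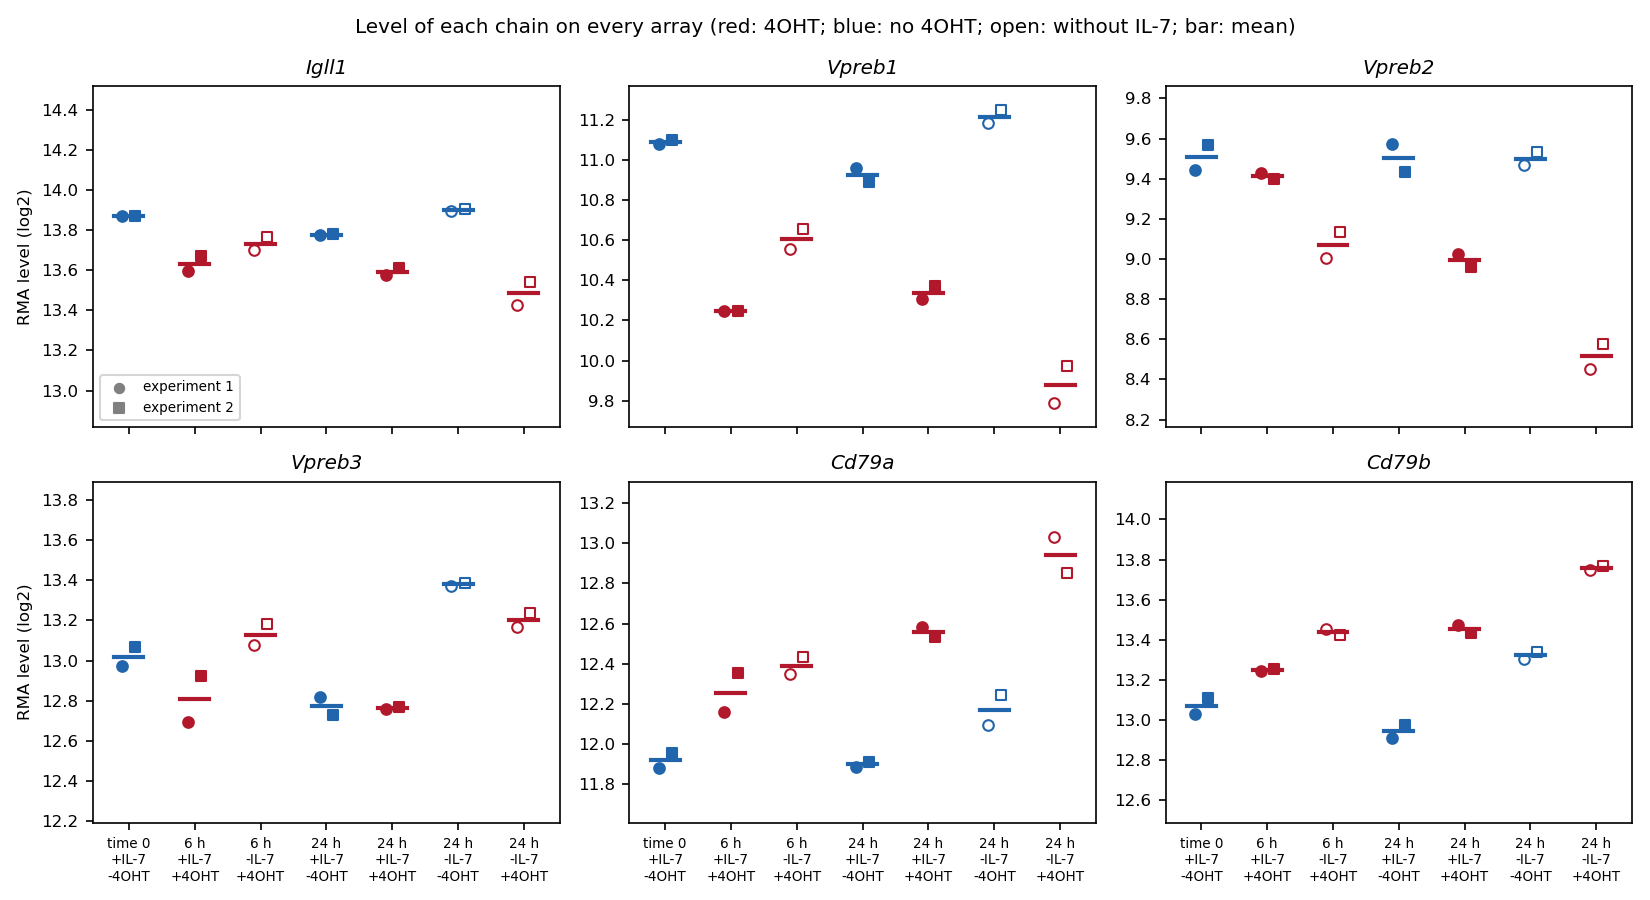
Level of each gene (y axis, log2 RMA value) on all 14 arrays in the 7 groups (x axis); circles are experiment 1, squares experiment 2, bars the mean of both, red 4OHT, blue no 4OHT, and open symbols cultures without IL-7. All panels span the same log2 range; Vpreb1 and Vpreb2 are lowest and Cd79a and Cd79b highest at 24 h with 4OHT and without IL-7.

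Igll1, the constant-like part of the surrogate light chain, varied least of the 6 genes, with group means that span 0.42 on the log2 scale. It was read at 13.87 on both arrays at time 0, at 13.77 and 13.78 after 24 h with IL-7 alone, and at 13.90 and 13.91 after 24 h without IL-7 or 4OHT. With 4OHT it was read at 13.59 and 13.67 at 6 h with IL-7, at 13.70 and 13.77 at 6 h without it, at 13.57 and 13.61 at 24 h with it and at 13.43 and 13.54 at 24 h without it. All 8 arrays with 4OHT lay below all 6 arrays without it, by less than the second decimal where the 6 h arrays without IL-7 met the 24 h arrays with IL-7 alone. At 24 h without IL-7, 4OHT lowered Igll1 by 0.42 ± 0.07 (a change of -0.42, adjusted p = 0.000804), while with IL-7 the change was -0.18 ± 0.07 (adjusted p = 0.114, 95% interval -0.33 to -0.04). Against time 0 it passed at 6 h with 4OHT and IL-7 (-0.24 ± 0.07, adjusted p = 0.041), but not when any 1 of those 4 arrays was left out (adjusted p up to 0.255) or when the 24 h arrays with IL-7 alone stood in for time 0 (-0.14, adjusted p = 0.233). From 6 h to 24 h with 4OHT and no IL-7 it fell (-0.25 ± 0.07, adjusted p = 0.029), though not without either 6 h array or the experiment 1 array at 24 h (adjusted p up to 0.198). Neither IL-7 withdrawal alone (0.13 ± 0.07, adjusted p = 0.245) nor withdrawal under 4OHT at 24 h (-0.11 ± 0.07, adjusted p = 0.283) passed. Igll1 lies near the top of the scale, whose highest value on any array was 14.34. Igll1 reached 13.91 on its highest array, Cd79b 13.77 and Vpreb3 13.39. Whether the probe sets of these genes read changes at full size there was not tested.

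Vpreb1, the variable-like part, had the widest span of the 6 genes, 1.34 between its lowest and highest group means. It was read at 11.08 and 11.10 at time 0, at 10.96 and 10.89 at 24 h with IL-7 alone and at 11.18 and 11.25 at 24 h without IL-7 or 4OHT. At 6 h with 4OHT it stood at 10.25 in both experiments with IL-7 and at 10.56 and 10.66 without it. At 24 h with 4OHT it stood at 10.31 and 10.37 with IL-7 and at 9.79 and 9.98 without it. The arrays with 4OHT again all lay below those without.

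Vpreb1 fell within 6 h of culture with 4OHT, to 1.79-fold below time 0 (-0.84 ± 0.08, adjusted p = 2.58e-05), a comparison in which 4OHT and culture time are not separated because no 6 h array lacks 4OHT. In the time control, 24 h with IL-7 alone, its change was -0.17 ± 0.08 (adjusted p = 0.3). At 24 h 4OHT lowered it 1.50-fold with IL-7 (-0.59 ± 0.08, adjusted p = 0.000395) and 2.52-fold without IL-7 (-1.34 ± 0.08, adjusted p = 3.02e-07). The difference between those effects passed the interaction test (-0.75 ± 0.11, adjusted p = 0.00756), as only 0.687% of all genes did, and was -0.74 in experiment 1 and -0.76 in experiment 2. Without the experiment 2 array at 24 h without IL-7 or 4OHT its adjusted p was 0.0511.

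The response of Vpreb1 to IL-7 withdrawal took opposite directions in different settings. Withdrawal raised it at 24 h without 4OHT (0.29 ± 0.08, adjusted p = 0.017) and at 6 h with 4OHT (0.36 ± 0.08, adjusted p = 0.00695), and lowered it at 24 h with 4OHT (-0.46 ± 0.08, adjusted p = 0.000867). Without the experiment 2 array of either group the 24 h rise did not pass (adjusted p up to 0.13), nor did the 6 h rise without the experiment 2 array lacking IL-7 (adjusted p = 0.0683). The change at 24 h minus the change at 6 h, both under 4OHT, was -0.82 ± 0.11 (adjusted p = 0.000578), a comparison chosen after the values were seen that 5.01% of all genes passed. Between 6 h and 24 h with 4OHT, Vpreb1 fell without IL-7 (-0.73 ± 0.08, adjusted p = 6.53e-05), while with IL-7 the change was 0.09 ± 0.08 (adjusted p = 0.718, 95% interval -0.07 to 0.26).

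Vpreb2, the near copy of Vpreb1, was lowered by 4OHT at 24 h but differed from Vpreb1 most at 6 h. It was read at 9.44 and 9.57 at time 0, at 9.57 and 9.44 at 24 h with IL-7 alone, and at 9.47 and 9.53 at 24 h without IL-7 or 4OHT. With 4OHT it was read at 9.43 and 9.40 at 6 h with IL-7, at 9.01 and 9.13 at 6 h without it, at 9.02 and 8.96 at 24 h with it, and at 8.45 and 8.58 at 24 h without it. The 3 groups without 4OHT overlapped one another, and the 6 h group with 4OHT and IL-7 lay just below them.

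At 24 h 4OHT lowered Vpreb2 1.42-fold with IL-7 (-0.51 ± 0.08, adjusted p = 0.00148) and 1.98-fold without it (-0.99 ± 0.08, adjusted p = 4.57e-06). The interaction was -0.48 ± 0.11 and did not pass (adjusted p = 0.109), although it did with the experiment as a block (adjusted p = 0.0398). After 6 h of 4OHT in IL-7 the change from time 0 was -0.09 ± 0.08 (adjusted p = 0.677, 95% interval -0.27 to 0.08), against the fall of 0.84 in Vpreb1. IL-7 withdrawal at 6 h lowered Vpreb2 (-0.34 ± 0.08, adjusted p = 0.0126) where it raised Vpreb1. Without the experiment 1 array of either 6 h group that fall did not pass (adjusted p up to 0.112). Set against each other, the change of Vpreb1 minus that of Vpreb2 was -0.82 and -0.68 in the 2 experiments for 6 h against time 0, and 0.73 and 0.68 for withdrawal at 6 h. An exact permutation test of these differences with 2 arrays against 2 cannot go below p = 0.333 (two-sided), which is the value it gave in both. For 24 h against 6 h with 4OHT and IL-7 the difference was 0.46 and 0.56 in the 2 experiments. The genes also differed at 24 h with the same sign in both experiments, by -0.38 and -0.32 for 4OHT without IL-7 and by 0.32 and 0.26 for withdrawal without 4OHT. For both treatments against neither at 24 h the difference was -0.05 in each experiment. IL-7 withdrawal at 24 h without 4OHT gave Vpreb2 a change of -0.00 ± 0.08 (adjusted p = 0.991, 95% interval -0.18 to 0.17), and under 4OHT it lowered it (-0.48 ± 0.08, adjusted p = 0.000934). From 6 h to 24 h with 4OHT Vpreb2 fell both with IL-7 (-0.42 ± 0.08, adjusted p = 0.0129) and without it (-0.55 ± 0.08, adjusted p = 0.000624), the first of which did not pass when any 1 of its 4 arrays was left out (adjusted p up to 0.1).

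**Figure D3:**
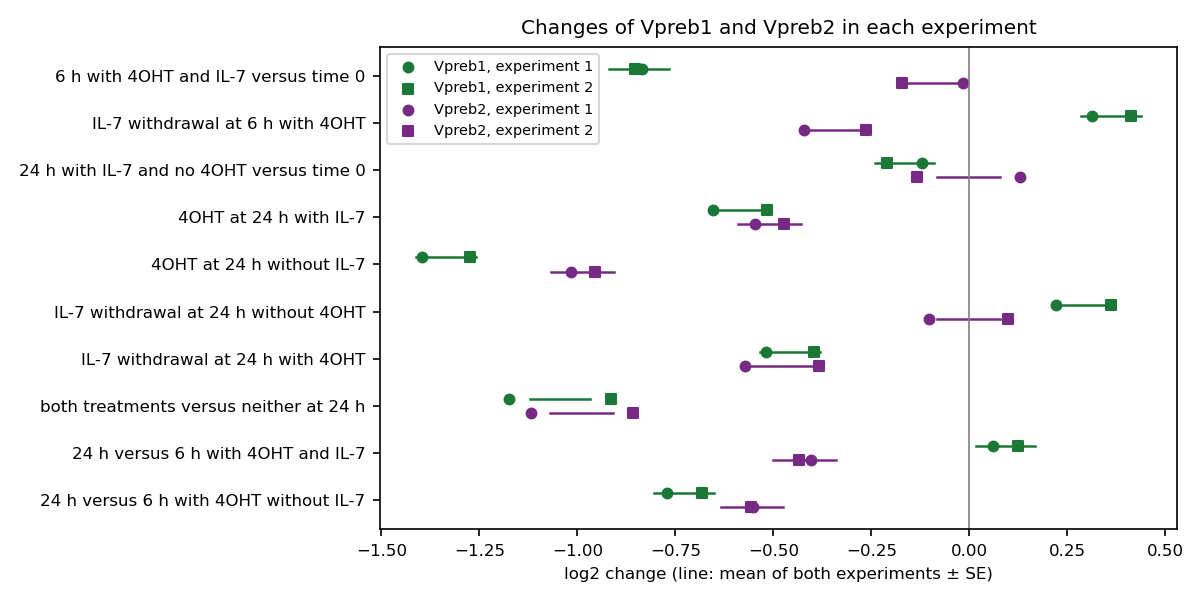
Log2 change (x axis) of Vpreb1 (green) and Vpreb2 (purple) in experiment 1 (circles) and experiment 2 (squares) for 10 comparisons (y axis); lines are the mean ± SE. The genes lie furthest apart for 6 h against time 0, where Vpreb1 changed by -0.84 and Vpreb2 by -0.09. For 24 h against 6 h with 4OHT and IL-7, Vpreb1 changed by 0.09 and Vpreb2 by -0.42. The genes lie apart by less at 24 h for 4OHT without IL-7 and for withdrawal without 4OHT, and lie together for both treatments against neither.

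Vpreb3, a VpreB relative that binds new heavy chains inside the cell and is not part of the surface receptor, rose on IL-7 withdrawal in all 3 comparisons made, while its changes with 4OHT at 24 h did not pass. Without IL-7 it was read at 13.08 and 13.18 at 6 h with 4OHT, at 13.37 and 13.39 at 24 h without 4OHT and at 13.17 and 13.24 at 24 h with it. With IL-7 it was read at 12.97 and 13.07 at time 0, at 12.70 and 12.92 at 6 h with 4OHT, at 12.82 and 12.73 at 24 h without 4OHT and at 12.76 and 12.77 at 24 h with it. All 6 arrays without IL-7 lay above all 8 arrays with it. The gap was narrow between the experiment 1 array at 6 h without IL-7 (13.08) and the experiment 2 array at time 0 (13.07). Those 2 groups did not differ in limma (0.11, adjusted p = 0.554). Withdrawal raised Vpreb3 1.52-fold at 24 h without 4OHT (0.61 ± 0.08, adjusted p = 0.000325), 1.36-fold at 24 h with 4OHT (0.44 ± 0.08, adjusted p = 0.00207) and 1.25-fold at 6 h with 4OHT (0.32 ± 0.08, adjusted p = 0.0221). The rise at 6 h did not pass without the experiment 1 array with IL-7 (a change of 0.20, adjusted p = 0.242) or the experiment 2 array without IL-7 (a change of 0.27, adjusted p = 0.162). For 4OHT at 24 h the change was -0.01 ± 0.08 with IL-7 (adjusted p = 0.952, 95% interval -0.19 to 0.17) and -0.18 ± 0.08 without it (adjusted p = 0.212, 95% interval -0.36 to 0.00).

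Cd79a and Cd79b, the signalling chains, rose with 4OHT at 24 h under both IL-7 conditions. Cd79a was read at 11.88 and 11.95 at time 0, at 11.89 and 11.91 at 24 h with IL-7 alone and at 12.09 and 12.24 at 24 h without IL-7 or 4OHT. With 4OHT it was read at 12.16 and 12.35 at 6 h with IL-7, at 12.35 and 12.43 at 6 h without it, at 12.58 and 12.53 at 24 h with it and at 13.03 and 12.85 at 24 h without it. The 24 h arrays with 4OHT were thus the highest 4 of the 14. At 24 h 4OHT raised Cd79a 1.58-fold with IL-7 (0.66 ± 0.09, adjusted p = 0.000507) and 1.71-fold without it (0.77 ± 0.09, adjusted p = 7.25e-05), and the interaction was 0.11 ± 0.13 (adjusted p = 0.857, 95% interval -0.16 to 0.39). Cd79a at 6 h with 4OHT and IL-7 stood above time 0 (0.34 ± 0.09, adjusted p = 0.0345), which did not pass without either time 0 array or the experiment 2 array at 6 h (adjusted p up to 0.257). IL-7 withdrawal raised it at 24 h with 4OHT (0.38 ± 0.09, adjusted p = 0.00745), though not without the experiment 1 array of the group lacking IL-7 or the experiment 2 array of the other (adjusted p of 0.07 and 0.052). Without 4OHT the change was 0.27 ± 0.09 (adjusted p = 0.0514), which passed with the experiment as a block (adjusted p = 0.0269). From 6 h to 24 h with 4OHT it rose without IL-7 (0.55 ± 0.09, adjusted p = 0.00139), and with IL-7 the change of 0.30 ± 0.09 passed under the block alone (adjusted p = 0.0935, or 0.0376 with the block).

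Cd79b was read at 13.03 and 13.11 at time 0, at 12.91 and 12.98 at 24 h with IL-7 alone and at 13.30 and 13.34 at 24 h without IL-7 or 4OHT. With 4OHT it was read at 13.25 and 13.26 at 6 h with IL-7, at 13.46 and 13.42 at 6 h without it, at 13.47 and 13.44 at 24 h with it and at 13.75 and 13.77 at 24 h without it. The 24 h arrays with 4OHT and no IL-7 were the highest, and the 24 h arrays without IL-7 or 4OHT lay above the 6 h arrays with 4OHT and IL-7, which overlapped them in Cd79a. 4OHT at 24 h raised Cd79b 1.43-fold with IL-7 (0.51 ± 0.06, adjusted p = 0.000248) and 1.35-fold without it (0.44 ± 0.06, adjusted p = 0.000385), with an interaction of -0.08 ± 0.09 (adjusted p = 0.863, 95% interval -0.27 to 0.12). IL-7 withdrawal at 24 h raised it 1.30-fold without 4OHT (0.38 ± 0.06, adjusted p = 0.0011) and 1.23-fold with it (0.30 ± 0.06, adjusted p = 0.00349). At 6 h the change on withdrawal was 0.19 ± 0.06 (adjusted p = 0.0668, or 0.0381 with the experiment as a block), and against time 0 the change at 6 h with 4OHT and IL-7 was 0.18 ± 0.06 (adjusted p = 0.112), or 0.31 against the 24 h arrays with IL-7 alone (adjusted p = 0.0105). Cd79b also rose from 6 h to 24 h with 4OHT and no IL-7 (0.32 ± 0.06, adjusted p = 0.00515).

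**Figure D4:**
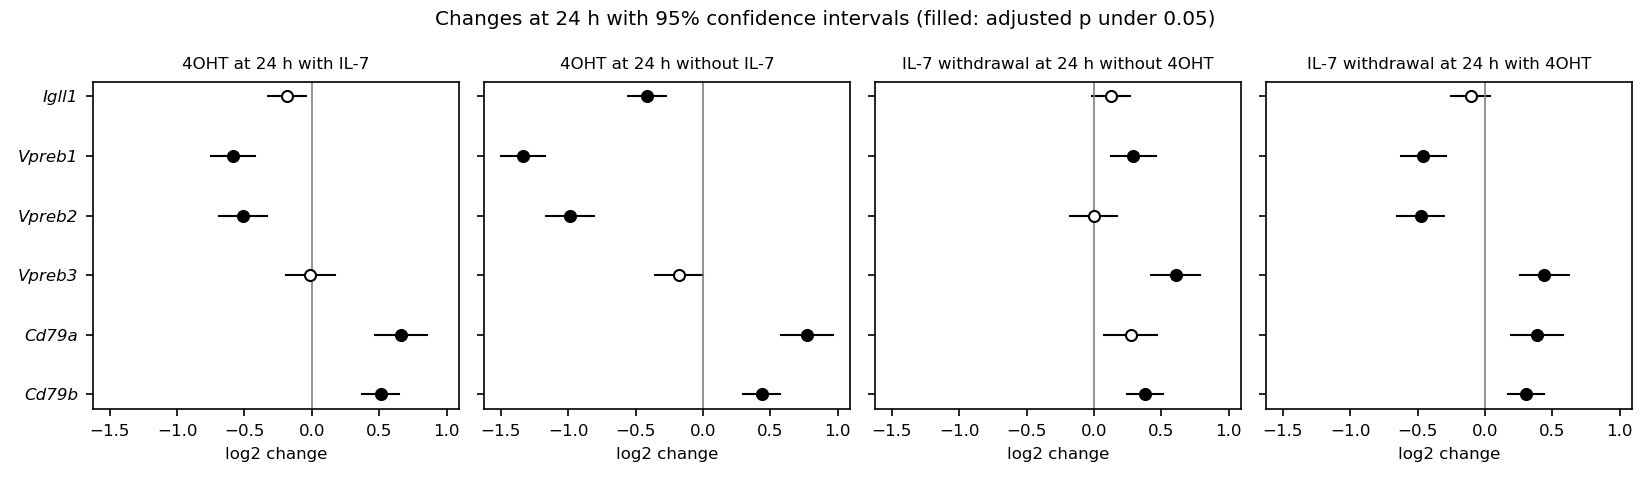
Log2 changes (x axis) of the 6 genes (y axis) at 24 h for 4OHT with and without IL-7 and for IL-7 withdrawal without and with 4OHT; lines are 95% confidence intervals and filled points have an adjusted p under 0.05. Under 4OHT Vpreb1 and Vpreb2 lie below 0 and Cd79a and Cd79b above it, with Vpreb3 at -0.01 and -0.18.

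Counted over the 6 genes, 4OHT at 24 h gave 2 higher and 2 lower with IL-7, where 5.22% of all genes passed higher and 3.94% lower, and 2 higher and 3 lower without IL-7, where 7.1% and 8.17% did. IL-7 withdrawal at 24 h gave 3 higher and 0 lower without 4OHT, against 11.2% and 8.78% of all genes, and 3 higher and 2 lower with 4OHT, against 12.8% and 11.5%. After 6 h with 4OHT and IL-7, 1 was higher and 2 lower than at time 0, against 3.92% and 4.85% of all genes, and withdrawal at 6 h gave 2 higher and 1 lower, against 6.78% and 7.48%. From 6 h to 24 h with 4OHT 1 passed with IL-7 (Vpreb2, lower), where 3.66% of all genes passed, and 2 were higher and 3 lower without IL-7, against 5.11% and 6.81%. In the time control 0 of the 6 passed in limma, against 3.09% of all genes, and 1 of them, Vpreb3, had an unadjusted p under 0.05 (-0.25 ± 0.08, adjusted p = 0.143). The arrays of the compared groups did not overlap in 5 of the 6 genes for 4OHT with IL-7 and in 6 without it, as in 52.8% and 50.2% of all genes. For IL-7 withdrawal at 24 h this held in 5 of the 6 without 4OHT and in 6 with it, as in 53.6% and 57.5%. The comparisons share arrays, so their counts are not independent of each other.

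The order of the groups differed between the CD79 genes and both Vpreb1 and Vpreb2. From low to high Vpreb1 ran from 24 h with 4OHT and no IL-7 through 6 h and then 24 h with 4OHT and IL-7, 6 h with 4OHT and no IL-7, 24 h with IL-7 alone and time 0 to 24 h with neither IL-7 nor 4OHT. Of its 6 neighbouring pairs 3 differed in limma, and those that did not were the 6 h and 24 h groups with 4OHT and IL-7 (adjusted p = 0.718) and the 3 groups without 4OHT (adjusted p of 0.3 and 0.502). In Cd79a and Cd79b only the top step, from 24 h with 4OHT and IL-7 to 24 h with 4OHT and no IL-7, passed between neighbours (adjusted p of 0.00745 and 0.00349). In Igll1 and Vpreb3 none of the neighbouring steps passed in limma, with a smallest adjusted p of 0.283 and 0.178. In Vpreb2 the steps that passed were from 24 h with both treatments to 24 h with 4OHT and IL-7 (adjusted p = 0.000934) and from 6 h with 4OHT and no IL-7 to 6 h with 4OHT and IL-7 (adjusted p = 0.0126).

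Over the 7 group means, as a description, the neighbours Igll1 and Vpreb1 correlated at a Pearson r of 0.99 (Spearman rho 0.96) and Cd79a and Cd79b at 0.97 (rho 0.96). Vpreb1 and Vpreb2 correlated less, at 0.82 (rho 0.79). Vpreb2 and Cd79a ran opposite, at -0.95 (rho -0.96), and Vpreb3 stayed between -0.18 and 0.43 with each of the others. The 7 points share arrays and normalization. Among 1578 other genes above the median whose group means span at least 1, those most like Cd79b were Tlr9, the receptor for CpG DNA (r = 0.996), H2-Ob, an MHC class II-like chaperone (0.995), Zeb2os (0.993) and Cyth1 (0.991). For Cd79a they were Fchsd2 (0.997), Snap29 (0.994), Dennd1c (0.993) and Klrb1 (0.99). The genes most like Igll1 were Myzap (0.993), Ccnjl (0.99), the catenin gene Ctnnd1 (0.983) and Tnfsf10 (0.982), which encodes the death ligand TRAIL. Ccnjl (0.981) and Ctnnd1 (0.979) were also among those most like Vpreb1, with Spred2 (0.98), an inhibitor of RAS signalling, and Slco3a1 (0.972). Ifitm2 (0.993), Rapgef5 (0.986), the nuclear receptor gene Nr4a2 (0.986) and Srfbp1 (0.981) were most like Vpreb2, and Nbeal1 (0.981), Prox1 (0.961), Ypel2 (0.957) and Dstyk (0.949) most like Vpreb3. Over the 14 single arrays r was lower for each of these named genes. It ran from 0.867 (Ccnjl with Vpreb1) to 0.982 (H2-Ob with Cd79b).

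Signalling partners of the pre-B cell receptor were counted in the same comparisons. Of 16 measured partners 7 rose and 0 fell at 24 h with 4OHT in the presence of IL-7 (median change 0.28, against -0.04 over all genes), where 5.22% of all genes rose and 3.94% fell. In the absence of IL-7, 7 rose and 1 fell with 4OHT (0.27 against 0.01), where 7.1% of all genes rose and 8.17% fell. IL-7 withdrawal at 24 h raised 9 and lowered 0 without 4OHT, against 11.2% and 8.78% of all genes, and raised 10 and lowered 0 with it, against 12.8% and 11.5%. Under both treatments against neither 13 rose and 0 fell (0.51 against -0.01), where 18.1% of all genes rose and 15.4% fell. In the time control, 24 h with IL-7 alone against time 0, 0 rose and 3 fell in limma, where 3.09% of all genes passed. These were Fyn (-0.71 ± 0.10, adjusted p = 0.00424), Blnk (-0.41 ± 0.09, adjusted p = 0.0353) and Inpp5d (-0.31 ± 0.07, adjusted p = 0.0361), so the reference of the 24 h comparisons was itself below time 0 for them. The largest rises under both treatments were in Prkcb (1.50 ± 0.11, adjusted p = 7.12e-07), a protein kinase C, Fyn (1.37 ± 0.10, adjusted p = 5.1e-07), a SRC family kinase, and Syk (1.30 ± 0.10, adjusted p = 1.16e-06), the kinase that binds phosphorylated CD79. Fyn also rose on IL-7 withdrawal without 4OHT (1.08 ± 0.10, adjusted p = 2.15e-05). In the 6 h group given 4OHT in IL-7, 0 of the 16 rose and 3 fell against time 0 in limma, Fyn (-0.50 ± 0.10), Pik3ap1 (-0.44 ± 0.09) and Prkcb (-0.40 ± 0.11), at adjusted p of 0.00511, 0.0103 and 0.0408. Against time 0, 3.92% of all genes rose there and 4.85% fell. No 6 h array lacks 4OHT, so 4OHT and culture time are not separated in it.

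Of 19 transcription factors known to act on these genes or on B cell precursors, 13 rose and 3 fell under both treatments against neither at 24 h (median 0.37 against -0.01 over all genes), where 18.1% of all genes rose and 15.4% fell. With 4OHT 8 rose and 2 fell in the presence of IL-7, against 5.22% and 3.94% of all genes, and 7 rose and 3 fell in its absence, against 7.1% and 8.17%. IL-7 withdrawal at 24 h raised 13 and lowered 1 without 4OHT, against 11.2% and 8.78% of all genes, and raised 11 and lowered 2 with it, against 12.8% and 11.5%. In the time control, where 3.09% of all genes passed, 0 rose and 2 fell in limma, Spib (-0.59 ± 0.10, adjusted p = 0.0102) and Irf8 (-0.33 ± 0.07, adjusted p = 0.0308). Spib, an Ets factor, rose by 2.51 ± 0.10 with 4OHT and IL-7 (adjusted p = 6.76e-08) and by 2.06 ± 0.10 without IL-7 (adjusted p = 8.39e-08). Tcf3, which encodes the E-box factor E2A, rose by 0.70 ± 0.07 with IL-7 (adjusted p = 7.03e-05). Foxo1 rose by 0.82 ± 0.12 with IL-7 (adjusted p = 0.00117) and by 1.22 ± 0.12 without it (adjusted p = 2.66e-05). Myc, a driver of cell growth and division, fell by 2.70 ± 0.11 with 4OHT when IL-7 was absent (adjusted p = 1.7e-08), and was the 1 of the 19 that passed the interaction test (-2.47 ± 0.15, adjusted p = 3.05e-05). IL-7 withdrawal changed Myc by -2.13 ± 0.11 at 6 h with 4OHT, and at 24 h by -0.80 ± 0.11 without 4OHT and -3.27 ± 0.11 with it. Under both treatments against neither Myc changed by -3.50 ± 0.11. These changes of Myc all passed in limma. At 6 h with 4OHT and IL-7, when Vpreb1 was already lower, Lef1 fell (-1.03 ± 0.09, adjusted p = 2.03e-05) and Myc (0.72 ± 0.11, adjusted p = 0.000936) and Pax5 (0.52 ± 0.11, adjusted p = 0.00804) rose. Of the immunoglobulin constant genes Ighm alone had a probe set of its own, out of 5 listed, and it passed once, on IL-7 withdrawal at 24 h with 4OHT (0.29 ± 0.09, adjusted p = 0.0396). Both lists were chosen with earlier results of these data known.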

How the data were processed

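RNA was measured on 14 arrays in 7 groups named by the sample titles. Per the labels' protocols, labelled targets were made from 150 ng of total RNA. The authors deposited log2 values for 35556 probe sets, made with Affymetrix Expression Console 1.1 and RMA per the submitters' processing notes. Genome build: not given in the sources used here. Scanner intensities were not used, so no detection or saturation calls were made.

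Probe sets with 1 symbol (21789) were named through the platform annotation, and the brightest probe set per gene left 19938 genes. Each of the 6 genes had 1 probe set, so no other could be tried. The members and gene lists were chosen with earlier results of these data known. Genes named for their changes come from the 3 largest passing changes of a list per comparison, and not all of those are printed. Named for their pattern are the 4 genes most correlated with a member.

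limma 3.58.1 in R 4.3.3 (lmFit, eBayes, 2-sided, tested on simulated data) fitted a mean per group over all 14 arrays, with 7 residual and 4.83 prior degrees of freedom, for 11 comparisons and 1 chosen after the values were seen. Arrays with the same number come from 1 of 2 independent experiments, per the labels, and so are paired. Deviations of same-numbered arrays correlated in all 21 pairs of groups (0.124 to 0.631). The fit without that block was the chosen design. The p-values measure the spread between arrays of these 2 experiments on 1 line. Precision is limited by how few arrays there are (median SE 0.091). Sequences were aligned with Biopython 1.88.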

Additional observations from a re-analysis of the deposited data

Results flagged for a closer look

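Vpreb1 responded differently to the same treatment in different settings, by the test of the difference itself. Its 4OHT effect at 24 h differed between cultures without and with IL-7 by -0.75 ± 0.11 (limma adjusted p = 0.00756, lower in 2 of 2 experiments), from -0.59 with IL-7 to -1.34 without it. That difference did not pass without the experiment 2 array at 24 h lacking IL-7 and 4OHT. The response of Vpreb1 to IL-7 withdrawal under 4OHT differed between 24 h and 6 h by -0.82 ± 0.11 (limma adjusted p = 0.000578, lower in 2 of 2 experiments), from 0.36 at 6 h to -0.46 at 24 h. This comparison was chosen after the values were seen, so its p-value is not independent support, and 5.01% of all genes passed it.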

How the results depend on the processing

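The counts of the 6 genes that passed moved by over 1.5 times as follows. At 6 h with 4OHT and IL-7 against time 0 the count of 3 became 1 when only the compared arrays were fitted and 1 when all probe sets were tested, with Vpreb1 passing throughout, and lay between 1 and 2 when 1 array was left out. For IL-7 withdrawal at 6 h the count of 3 became 1 with the compared arrays only, and 1 to 3 with 1 array left out. For 24 h against 6 h with 4OHT the count of 5 without IL-7 became 3 with the compared arrays only, and the count of 1 with IL-7 became 2 with an intensity trend and robust prior and 0 without any 1 of its arrays. With the experiment as a replicate block the interaction count of 1 became 2 and the count for 24 h against 6 h with IL-7 became 2, and the interaction count was 0 without the experiment 2 array at 24 h lacking IL-7 and 4OHT. The block, which pairs the arrays of an experiment, otherwise changed the calls of Cd79b on withdrawal at 6 h and Cd79a on withdrawal at 24 h without 4OHT. It also raised the genes passing over the whole table, from 1748 to 2999 at 6 h against time 0, from 617 to 2056 in the time control, from 1826 to 3324 for 4OHT with IL-7, from 137 to 449 for the interaction, from 729 to 1819 and from 2377 to 3727 for 24 h against 6 h with and without IL-7, and from 998 to 1972 for the change at 24 h minus that at 6 h. Igll1 under both treatments against neither had an adjusted p of 0.0508 with the compared arrays only. None of the called changes reversed under the alternatives run. Replacing time 0 by the 24 h arrays with IL-7 alone, and the alternatives for the change at 24 h minus that at 6 h, were chosen after seeing the data. Another probe set per gene was not run, since each gene had 1. The causes of these shifts were not tested.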
